A study of Mus musculus with 23 samples.

Results

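The enzymes that build purine and pyrimidine nucleotides from small precursors were followed at the mRNA and ribosome level in mouse intestinal organoids and in the mouse small intestine, with and without the gene *Rptor*. The set was a fixed list of 10 genes of the 22350 genes counted in the series: *Cad*, *Dhodh* and *Umps* for pyrimidines, *Ppat*, *Gart*, *Pfas*, *Paics* and *Atic* for purines up to inosine monophosphate (IMP), and *Impdh1* and *Impdh2* for the step from IMP towards guanine nucleotides. Every member was counted in all 23 libraries and passed the filter on low counts in all 6 comparisons. The list goes by gene name and applies no threshold to the values. It was chosen with earlier results of these data known.

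De novo nucleotide synthesis assembles the purine ring directly on phosphoribosyl pyrophosphate (PRPP), whereas the pyrimidine ring is closed first and joined to PRPP afterwards. Dividing cells, such as those of the intestinal crypt, depend on it for RNA and DNA. *Rptor* encodes Raptor, the subunit that recruits substrates to the kinase complex mTORC1. mTORC1 is known to stimulate pyrimidine synthesis through phosphorylation of the CAD protein by S6 kinase, and purine synthesis through the transcription factor ATF4 and the formate supply enzyme MTHFD2, while MYC is known to drive transcription of many of these enzymes.

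All mice were C57BL/6 and all organoids were grown from small intestinal crypts of such mice. For RNA-seq, WT organoids carried VillinCre.ERT2.RPL22.HA, *Rptor* fl/fl organoids carried VillinCre.ERT2 with *Rptor* fl/fl and no RPL22.HA, and stem cell enriched (SCe) organoids carried VillinCre.ERT2.RPL22.HA and were grown with 10 µM CHIR, an inhibitor of GSK3, and 1.5 mM valproic acid, an inhibitor of histone deacetylases. Villin drives the tamoxifen-inducible Cre recombinase in the intestinal epithelium, and RPL22.HA is a tagged ribosomal protein that appears in Cre-recombined cells. In organoid Ribo-seq, which sequences the mRNA fragments that ribosomes protect (footprints), VillinCre.ERT2.RPL22.HA SCe organoids were set against VillinCre.ERT2 *Rptor* fl/fl RPL22.HA organoids, without a WT group in normal medium. In adult mice, Cre was driven from *Lgr5*, a gene of crypt base stem cells, and footprints were collected by pulldown of HA-tagged ribosomes from Lgr5Cre.ERT2.RPL22.HA mice (WT) and from those with *Rptor* fl/fl in addition. The labels call every group apart from SCe untreated, while the methods of the study describe induction of Cre with tamoxifen. There were 4 RNA-seq libraries each of WT and *Rptor* fl/fl organoids, which are technical duplicates of 2 lines and were summed per line, and 3 libraries in every other group. The paper counts the 3 mice of a group, and the 2 lines each of WT and *Rptor* fl/fl in RNA-seq, as biological replicates. The SCe and organoid Ribo-seq libraries are numbered as organoids in their titles, and the paper does not call these replicates biological. Whether they come from separate animals is not stated, so p-values that involve them measure only the spread between these samples.

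Library totals ran from 23802944 to 67598878 estimated reads in RNA-seq, from 1106178 to 8257457 in organoid Ribo-seq and from 772077 to 8238388 in the mice. *Rptor* itself read 51.5 and 47.9 CPM (library-scaled read counts) in the WT lines against 14.8 and 15.5 in the *Rptor* fl/fl lines, a fall of 1.71 log2 units (adjusted p = 0.00516). In organoid Ribo-seq *Rptor* read 17.3, 18.7 and 16.0 CPM in the libraries labelled *Rptor* fl/fl against 15.2, 41.9 and 21.04 in SCe, a log2 difference of -0.53 (adjusted p = 0.318) that became -0.09 without SCe replicate 2. In the mice it read 32.6, 34.4 and 36.9 CPM against 41.7, 39.7 and 44.7 (log2 difference -0.28, adjusted p = 0.15). Lower *Rptor* reads thus passed the test in RNA-seq alone, and Ribo-seq groups are named below as they were labelled. SCe RNA-seq replicate 1 stood apart in its enterocyte markers, which summed to 259 CPM against 4136 and 5140 in the other SCe RNA-seq libraries. In organoid Ribo-seq, SCe replicate 1 was also the lowest in these markers, at 844 CPM against 2714 and 2977.

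The members lie on 7 chromosomes of the GRCm38 (mm10) assembly, by the GENCODE vM21 annotation. *Cad* (ENSMUSG00000013629.16) spans chr5:31054780-31078479 on the plus strand, *Dhodh* (ENSMUSG00000031730.18) chr8:109591343-109608673 on the minus strand and *Umps* (ENSMUSG00000022814.6) chr16:33954782-33967038 on the minus strand. *Ppat* (ENSMUSG00000029246.14, chr5:76913249-76951578, minus strand) and *Paics* (ENSMUSG00000029247.17, chr5:76951307-76967509, plus strand) lie head to head, and their annotated spans overlap by 272 bases. Use of strand in the counting is not given in the sources used here, so reads within those bases cannot be told apart. *Gart* (ENSMUSG00000022962.15) spans chr16:91621186-91646952 on the minus strand, *Pfas* (ENSMUSG00000020899.16) chr11:68985697-69008460 on the minus strand and *Atic* (ENSMUSG00000026192.13) chr1:71557150-71579631 on the plus strand. *Impdh1* (ENSMUSG00000003500.13) occupies chr6:29200434-29216364 on the minus strand, and *Impdh2* (ENSMUSG00000062867.13) the much shorter chr9:108560286-108565584 on the plus strand.

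RefSeq promoter windows, from 250 bases before to 50 after a start site, were matched for 8 members in 9 windows, and *Dhodh* and *Pfas* had no window. The E-box CACGTG, a palindrome bound by MYC and its relatives, was present in 3 of the 9 windows and in 7.15% of the 32851 windows of all genes. The sequences are shown because they mark which members hold this motif at their start, in capitals, within 30 bases of the plus strand of GRCm38.p6, written 5′ to 3′:
Atic, chr1:71557137-71557166: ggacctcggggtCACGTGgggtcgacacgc
Paics, chr5:76951087-76951116: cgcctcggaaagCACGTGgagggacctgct
Impdh2, chr9:108560314-108560343: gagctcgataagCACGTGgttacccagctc
The *Atic* motif began 7 bases before the start site used by RefSeq and ran into the first exon as GENCODE annotates it. The *Paics* motif began 203 bases before the *Paics* start, inside the first exon of *Ppat*, which is transcribed from the opposite strand. The *Impdh2* motif began 110 bases before the RefSeq start, within the 5′ untranslated region of a longer annotated *Impdh2* transcript. TGATGNAA, the core of the amino acid response element bound by ATF4, was searched on both strands and was found in none of the 9 windows and in 3.97% of all windows.

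Levels of different genes are compared here in TPM, which divides reads by transcript length as well as by library total. In WT organoids *Impdh2* had the highest mRNA level, 210 ± 4.04 TPM (SD, n = 2 lines), followed by *Paics* at 78.7 ± 5.92, *Gart* at 71.6 ± 3.97 and *Atic* at 69.2 ± 1.75. *Cad* (25.4 ± 2.09), *Impdh1* (24.4 ± 2.16), *Umps* (21.1 ± 0.907), *Ppat* (19.0 ± 0.181), *Pfas* (14.4 ± 1.39) and *Dhodh* (13.7 ± 0.634) formed a lower tier. The ranges of the 2 lines overlapped for the neighbours *Gart* and *Atic*, *Cad* and *Impdh1*, and *Pfas* and *Dhodh*, which are therefore not ordered. The leading 4 genes kept that order of means in *Rptor* fl/fl and SCe organoids, although *Gart* and *Atic* overlapped in both and *Impdh2* and *Paics* overlapped in SCe. For *Impdh1* the level was 17.7 ± 3.37 TPM (n = 2) in *Rptor* fl/fl organoids, where it overlapped *Pfas* and *Dhodh* at the low end, and 43.2 ± 8.05 (n = 3) in SCe, where it followed the leading 4 without overlap. Both IMP dehydrogenases catalyse the same rate-limiting oxidation of IMP to xanthosine monophosphate, and the ratio of mean *Impdh2* to mean *Impdh1* level was 8.60 in WT, 13.6 in *Rptor* fl/fl and 3.78 in SCe organoids.

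**Figure D1:**
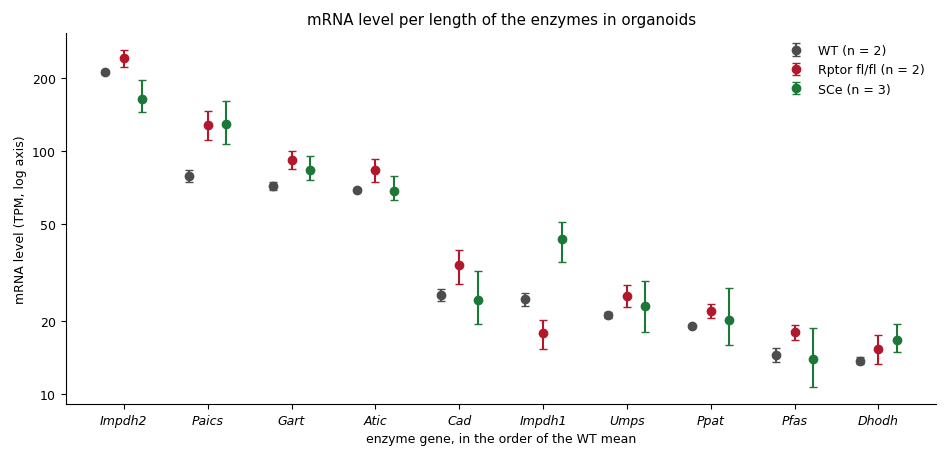
mRNA level per length of the 10 enzymes in organoids, in TPM on a log axis, ordered by the WT mean. Points are group means and bars run from the lowest to the highest line or library (WT and Rptor fl/fl n = 2 lines, SCe n = 3 libraries); Impdh2 leads in each group and Impdh1 lies lowest in Rptor fl/fl and highest in SCe.

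Most members were read from a single dominant transcript in RNA-seq. *Atic-201*, *Cad-201*, *Pfas-201*, *Ppat-202*, *Umps-201* and *Impdh2-201* each held at least 96.1% of their gene's reads in every group mean, and *Impdh1-201* held 89.0% in WT, 95.3% in *Rptor* fl/fl and 89.4% in SCe. *Paics* was split between *Paics-203* (52.2%, 54.7% and 56.7%) and *Paics-202* (43.8%, 42.2% and 40.2%). For *Dhodh*, the transcript *Dhodh-207*, annotated as a target of nonsense-mediated decay, took 12.2 to 12.7% of the reads in WT, 17.0 to 17.1% in *Rptor* fl/fl and 17.5 to 21.7% in SCe, with no overlap between the groups. These shares are estimates by the quantifier for transcripts that share sequence, and no test was made on them.

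The first RNA-seq comparison asked which enzymes change when *Rptor* is lost in organoids in normal medium. The WT lines also carry RPL22.HA, and the deletion and that allele cannot be told apart. *Paics* rose and *Impdh1* fell, and the other 8 members did not pass the test. *Paics* encodes the bifunctional enzyme of the carboxylation and succinocarboxamide steps of purine synthesis. It read 108 and 125 CPM in the WT lines and 191 and 153 CPM without *Rptor*, where CPM are reads scaled to the library total by TMM and serve to compare a single gene between samples. Both *Rptor* fl/fl lines lay above both WT lines, with a log2 difference of 0.56 ± 0.136 (SE), a 1.47-fold rise (edgeR quasi-likelihood test, adjusted p = 0.0476).

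*Impdh1* read 45.5 and 40.8 CPM in WT against 31.7 and 25.5 CPM in *Rptor* fl/fl organoids. The groups did not overlap, and *Impdh1* fell by 0.60 ± 0.132 (SE) on the log2 scale, or 1.51-fold (adjusted p = 0.0385). Its paralogue *Impdh2* read 271 and 268 CPM in WT against 297 and 268 in *Rptor* fl/fl, ranges that overlapped, with a log2 difference of 0.07 (95% interval -0.13 to 0.27). Both calls were near the threshold: the *Paics* call was lost without WT replicate 1, WT replicate 2 or *Rptor* replicate 1 (adjusted p = 0.153, 0.0777 and 0.0979), and the *Impdh1* call without WT replicate 1, WT replicate 2 or *Rptor* replicate 2 (0.121, 0.0716 and 0.0641).

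Of the remaining members, *Gart*, a trifunctional enzyme of purine ring assembly, read 117 and 118 CPM in WT and 153 and 129.5 in *Rptor* fl/fl, a log2 difference of 0.27 (adjusted p = 0.101). *Cad*, the trifunctional enzyme that opens pyrimidine synthesis, read 146 and 133 CPM against 190.3 and 146, with a log2 difference of 0.27 (95% interval -0.10 to 0.64). *Rptor* line 1 gave the higher value of the pair for all 10 members. Differences of *Dhodh*, the mitochondrial dehydrogenase that makes orotate, *Umps*, which completes UMP, *Ppat*, the amidotransferase of the committed purine step, *Pfas*, the FGAM synthase, and *Atic*, the enzyme of the last purine steps, lay between 0.09 and 0.19. In all, 1 of 10 members was called higher and 1 lower. Of the 14131 genes tested, 11.6% were called higher and 11% lower, shares close to those of the members. Groups failed to overlap upward for 4 members (*Gart*, *Paics*, *Pfas*, *Ppat*) and downward for *Impdh1*, beside 34.3% and 34.8% of all genes. The members' median log2 difference was 0.14, with 9 of 10 above 0, against -0.0049 for all genes. This median ranged from 0.020 to 0.27 over the alternative processing tried. Centred over the 7 RNA-seq lines and libraries, the members' mean log2 CPM was 0.12 and -0.11 in *Rptor* fl/fl, and -0.10 and -0.12 in WT.

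The second RNA-seq comparison asked what stem cell enriched medium does without deletion, since SCe is the control of organoid Ribo-seq. It shares the WT lines with the first. *Impdh1*, *Paics*, *Dhodh* and *Gart* rose in SCe and *Impdh2* fell. *Impdh1* read 70.6, 70.7 and 67.9 CPM in SCe, far above the 45.5 and 40.8 CPM of WT, a 1.64-fold rise (log2 difference 0.71 ± 0.0762 SE, adjusted p = 0.00318). *Paics* read 187, 186 and 182 CPM in SCe against 108 and 125 in WT, again without overlap (0.68 ± 0.0845, adjusted p = 0.0044).

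*Dhodh* read 25.6, 24.5 and 25.0 CPM in SCe and 20.3 and 18.4 CPM in WT, a log2 rise of 0.39 ± 0.0826 (adjusted p = 0.0181). *Gart* read 139, 142 and 147 CPM in SCe, above the 117 and 118 CPM of WT by 0.30 ± 0.0606 (adjusted p = 0.0152). *Impdh2* moved the other way, at 216, 211 and 209 CPM in SCe against 271 and 268 CPM in WT, and fell by 0.33 ± 0.0599 on the log2 scale (adjusted p = 0.0121).

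For *Cad*, *Umps*, *Ppat*, *Pfas* and *Atic* the 2 groups overlapped, with log2 differences from -0.04 to 0.16 and adjusted p from 0.284 to 0.987. Members called were 4 higher and 1 lower of 10, beside 22.4% of 14925 genes higher and 19.9% lower. Groups failed to overlap upward for 4 members and downward for 1, the same genes, beside 33.9% and 35.1% of all genes. The members' median log2 difference was 0.14 (0.079 to 0.22 over the alternative processing tried), against 0.023 for all genes. Without SCe replicate 1, the library that stood apart, the same 5 members were called. Without either WT line or without SCe replicate 3 only *Impdh1* and *Paics* were called, and without SCe replicate 2 these and *Impdh2*.

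**Figure D2:**
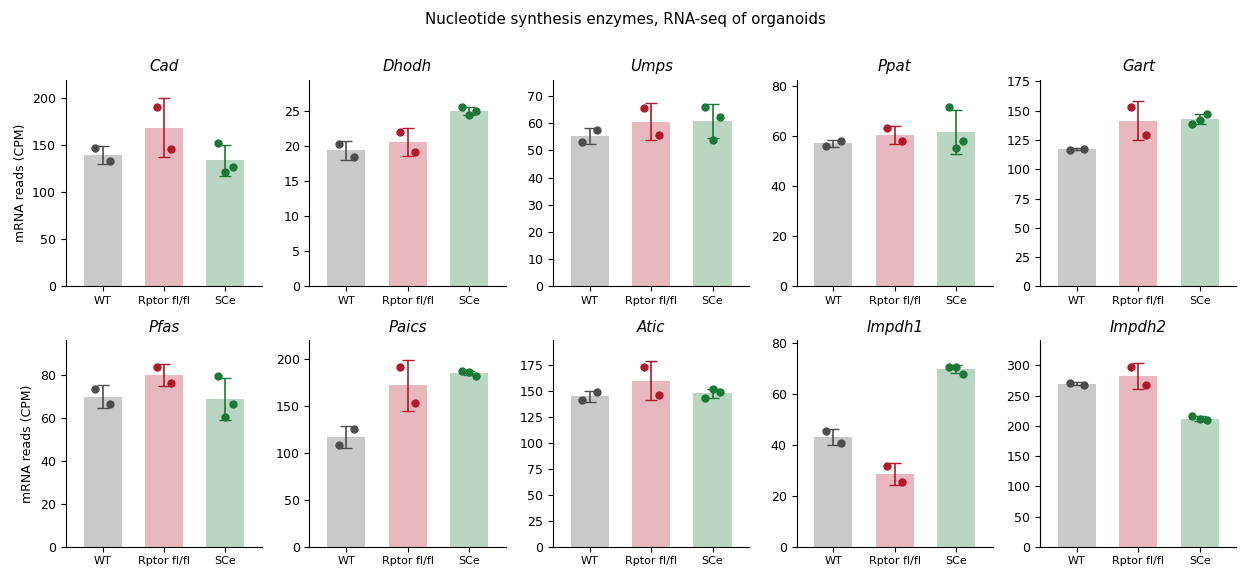
RNA-seq reads of each enzyme in organoids, in CPM after TMM scaling, for WT and Rptor fl/fl lines and SCe libraries. Bars are means, points are lines or libraries and error bars are SD. Impdh1 is lowest in Rptor fl/fl and highest in SCe, and Paics is lowest in WT. Cad, Umps and Atic overlap between every pair of groups.

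The third RNA-seq comparison set *Rptor* fl/fl organoids directly against SCe, as organoid Ribo-seq did with other organoids, and it uses samples of both comparisons above. Deletion, medium and RPL22.HA, which these *Rptor* fl/fl lines lack, all differ in it and cannot be told apart. In Ribo-seq both groups carry RPL22.HA. The IMP dehydrogenases differed in opposite directions. *Impdh1* at 31.7 and 25.5 CPM in *Rptor* fl/fl lay below each SCe library (67.9 to 70.7 CPM), 2.44-fold lower (log2 difference -1.28 ± 0.115 SE, adjusted p = 0.00194), and *Impdh2* at 297 and 268 CPM lay above each SCe library (209 to 216 CPM) by 0.42 ± 0.0802 (adjusted p = 0.0131). The *Impdh2* call was lost without SCe replicate 2, SCe replicate 3 or *Rptor* replicate 1 (adjusted p = 0.0536, 0.0618 and 0.0858).

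*Paics*, high in both groups relative to WT, differed between them by -0.10 (95% interval -0.39 to 0.18). *Dhodh* was at 21.9 and 19.2 CPM in *Rptor* fl/fl, below each of the 3 SCe libraries, with a log2 difference of -0.28 (adjusted p = 0.0719). *Ppat*, *Gart* and *Umps* had log2 differences of -0.02, -0.0099 and -0.00093, and those of *Atic*, *Pfas* and *Cad* were 0.11, 0.22 and 0.34. Of 10 members, 1 was called higher and 1 lower, beside 21% and 21.8% of 15103 genes. Groups failed to overlap upward for *Impdh2* and downward for *Dhodh* and *Impdh1*, beside 33.8% and 34.3% of all genes. Without SCe replicate 1, *Cad* and *Pfas* were also called higher (log2 differences 0.44 and 0.33). The members' median was -0.0054 (-0.096 to 0.12 over the alternative processing tried), against -0.014 for all genes.

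Cell type markers moved in the same comparisons, for which the shares of all genes called are given above. In bulk samples, fewer cells of a type and less RNA per cell cannot be told apart. Between *Rptor* fl/fl and WT organoids, 8 of 10 stem cell markers fell (summed level 2125 to 3504 CPM against 5185 to 6959.6), 5 of 6 Paneth cell markers fell and 4 of 6 goblet cell markers rose, while 1 of 17 proliferation genes fell. In SCe against WT, 5 of 6 goblet cell markers fell (244 to 427 CPM against 1579.5 to 1681), 1 of 10 stem cell markers rose and 3 fell, and no proliferation gene was called by edgeR. In *Rptor* fl/fl against SCe, all 6 goblet cell markers rose (2932 to 4030 CPM against 244 to 427), 2 of 10 stem cell markers rose and 4 fell (2125 to 3504 CPM against 2652 to 3605), 2 of 6 Paneth cell markers fell, the 3 stroma markers tested fell and 2 of 17 proliferation genes fell. Stroma markers summed to 69.8 to 115 CPM in SCe against 1.45 to 3.43 in the other RNA-seq groups, and up to 3 of 6 were at 0 in a library. The part of these differences in the members' values was not tested.

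Organoid Ribo-seq asked which members differ in ribosome occupancy between *Rptor* fl/fl and SCe organoids. *Paics* footprints fell in the libraries labelled *Rptor* fl/fl, and no other member passed the test. *Paics* read 202, 194 and 201 CPM in those libraries against 284, 329.4 and 329.5 CPM in SCe. The groups were well apart, and the log2 difference was -0.66 ± 0.155 (SE, 95% interval -1.01 to -0.31), a 1.58-fold decrease (adjusted p = 0.0218). Leaving out a single *Rptor* fl/fl replicate cost the call each time (adjusted p from 0.0981 to 0.131).

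*Impdh1* read 30.7, 31.1 and 33.9 CPM in the libraries labelled *Rptor* fl/fl, whereas SCe read 53.7, 38.5 and 51.1 CPM. The groups did not overlap, and the log2 difference of -0.59 ± 0.192 missed the threshold (adjusted p = 0.0671). SCe replicate 2 set the edge of the range, with 45 *Impdh1* footprints in all, and without it *Impdh1* was called lower (log2 difference -0.71, adjusted p = 0.0392). *Impdh2* read 334, 387 and 361 CPM against 320, 303 and 304 CPM, higher in each library but by only 0.22 (95% interval -0.13 to 0.57).

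*Atic* read 391, 371 and 390 CPM in the libraries labelled *Rptor* fl/fl against 277, 334 and 366 CPM in SCe, and *Umps* read 76.1, 75.6 and 79.5 CPM against 92.8, 93.2 and 84.9. Neither pair of groups overlapped, and neither passed the test (log2 differences 0.24 and -0.22, adjusted p = 0.375 and 0.336). *Cad*, *Dhodh*, *Ppat*, *Gart* and *Pfas* overlapped between groups. *Pfas* was the most variable, from 76.5 to 175 CPM among the SCe libraries. With 0 members called higher by edgeR (0 also at an unadjusted p under 0.05 and 0 by DESeq2) and 1 called lower, the members stood beside 6.63% and 9.84% of 10817 genes. Groups failed to overlap upward for 2 members and downward for 3, beside 20% and 19.3% of all genes. The members' median log2 difference was -0.070 (-0.082 to 0.065 over the alternative processing tried), against -0.023 for all genes.

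**Figure D3:**
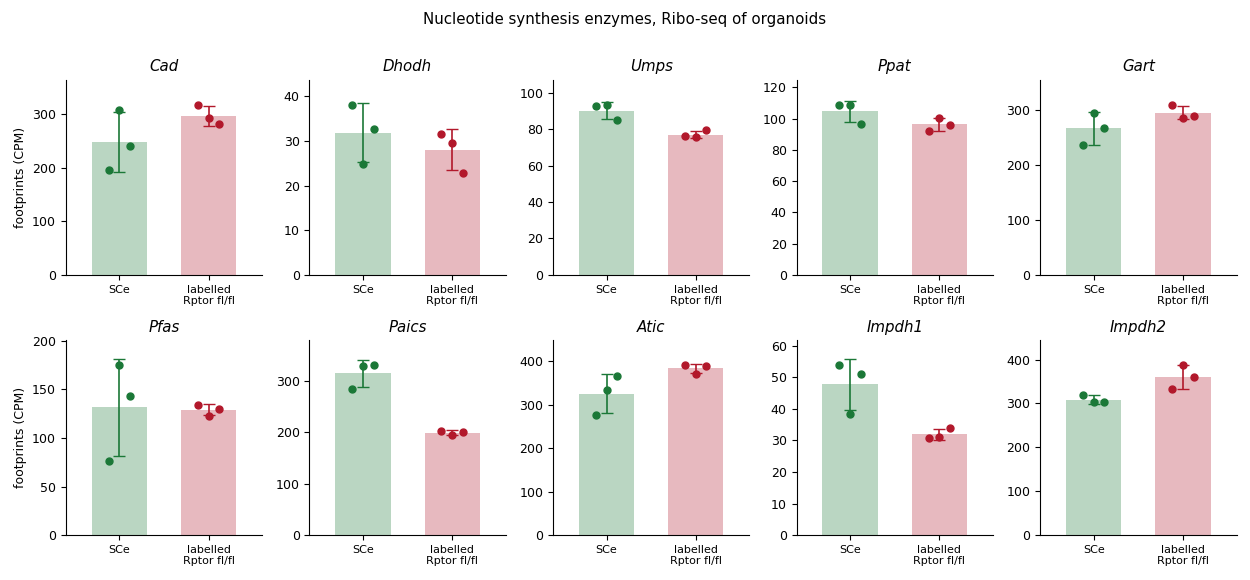
Ribosome footprints on the coding sequence of each enzyme in organoids, in CPM after TMM scaling, for SCe libraries and libraries labelled Rptor fl/fl (n = 3 each). Bars are means, points are libraries and error bars are SD; the Paics and Impdh1 points of the libraries labelled Rptor fl/fl lie below all SCe points, and Pfas and Cad spread widely within SCe.

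In these Ribo-seq libraries all 6 goblet cell markers rose (2867 to 4544 CPM against 1082 to 1484 in SCe) and 3 of 8 enterocyte markers rose. Of 5 Paneth cell markers tested 1 rose, and their summed level was 6226 to 9315 CPM against 3409 to 5921 in SCe. In RNA-seq of *Rptor* fl/fl against SCe, 2 of 6 Paneth cell markers fell instead. The shares of all genes called in organoid Ribo-seq are given above. Of 10 stem cell markers 5 fell and 1 rose, while their summed level was 6533 to 6710 CPM against 2975 to 5101 in SCe. The single stroma marker tested fell, and stroma markers summed to 143 to 810.3 CPM in SCe against 5.72 to 9.80. No proliferation gene of 17 was called by edgeR. The part of these differences in the members' footprints was not tested.

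Translation efficiency, the footprint difference relative to the mRNA difference, was tested as an interaction of assay and group over RNA-seq and Ribo-seq together. The assays were made on different organoids: the RNA-seq *Rptor* fl/fl lines lack RPL22.HA and have low *Rptor* mRNA, whereas the Ribo-seq libraries so labelled carry RPL22.HA and their *Rptor* footprints did not pass the test. The interaction cannot be told apart from that difference between the organoids. No member was called by edgeR in either direction, beside 1.12% of 10747 genes called higher and 1.81% called lower. At an unadjusted p under 0.05, *Impdh1* was higher (0.74 ± 0.213 on the log2 scale, adjusted p = 0.0864) and *Paics* lower (-0.50 ± 0.181, adjusted p = 0.156), 2 of 10 members beside 20.3% of all genes. DESeq2 called both (adjusted p = 0.00811 and 0.0134). For *Impdh1* the mRNA difference was -1.28 and the footprint difference -0.59. For *Paics* the mRNA difference was -0.10 and the footprint difference -0.66.

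The interaction of the other 8 members lay between -0.19 for *Pfas* and 0.22 for *Gart*, and the 95% intervals of all 8 included 0. The intervals of *Cad*, *Pfas*, *Umps* and *Impdh2* reached below the -0.50 of *Paics*, that of *Pfas* being the widest (-0.95 to 0.57). The median over the members was -0.028 (-0.14 to 0.096 over the alternative processing tried), against -0.031 for all genes. *Rptor* itself had an interaction of 1.43 (adjusted p = 0.0777).

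A second readout of the same genes was the footprints on sequences before the coding region, which were counted apart. They were a minor share of the members' footprints, 0.62 to 1.09% in the libraries labelled *Rptor* fl/fl and 0.778 to 1.96% in SCe. Over all genes the share was 3.8 to 4.3% and 3.0 to 7.0%. *Cad* had 110 such footprints beside 6062 on its coding sequence in the libraries labelled *Rptor* fl/fl (1.78%) and 33 beside 1757 in SCe (1.84%). *Impdh1* had the highest share, 24 footprints (3.51%) against 28 (7.12%). *Umps* had none in either group. These counts are too low to compare groups, and no test was made.

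In the small intestine of mice, footprints of *Gart*, *Umps*, *Impdh2*, *Cad* and *Paics* fell in the libraries labelled *Rptor* fl/fl, and 9 of 10 members had a negative difference. *Gart* read 51.7, 56.0 and 48.9 CPM in mice labelled *Rptor* fl/fl against 88.5, 85.8 and 74.0 CPM in WT mice. Each mouse labelled *Rptor* fl/fl lay below each WT mouse, and *Gart* fell by 0.64 ± 0.108 (SE) on the log2 scale, or 1.56-fold (adjusted p = 0.000981).

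The first and the last enzyme of pyrimidine synthesis fell. *Cad* read 57.0, 62.7 and 60.9 CPM against 86.0, 80.4 and 79.8 in WT, 1.35-fold lower (log2 difference -0.43 ± 0.0956, adjusted p = 0.0073). *Umps* read 16.5, 11.9 and 13.5 CPM against 22.8, 22.4 and 23.6, 1.66-fold lower (-0.73 ± 0.168, adjusted p = 0.00866). *Umps* rested on few reads, with 18 footprints in WT mouse 1, and its call was lost without WT mouse 3 (adjusted p = 0.0786). *Dhodh*, between them in the pathway, read 6.26, 5.48 and 6.70 CPM against 12.6, 3.65 and 7.49, overlapping ranges with 10 footprints in WT mouse 1 (log2 difference -0.16, 95% interval -0.85 to 0.52).

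Among the purine enzymes, *Impdh2* read 77.7, 62.4 and 67.8 CPM in the mice labelled *Rptor* fl/fl against 110.0, 101 and 91.1 in WT. The log2 difference was -0.51 ± 0.107 (adjusted p = 0.00496), and *Impdh2* was the only member called under each alternative processing tried for the mice. *Paics* read 38.5, 35.0 and 34.9 CPM against 48.0, 48.4 and 46.9, and fell by 0.40 ± 0.117 (adjusted p = 0.0322). The *Paics* groups were apart, but its call was lost without any single WT mouse (adjusted p from 0.0566 to 0.117) and without mouse 2 or 3 of those labelled *Rptor* fl/fl (0.121 and 0.117).

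*Pfas* read 22.7, 31.4 and 24.4 CPM against 25.3, 40.2 and 38.7 in WT (log2 difference -0.51, adjusted p = 0.0558), and *Ppat* 10.2, 10.05 and 9.60 CPM against 7.58, 18.7 and 14.2 (-0.57, adjusted p = 0.107). For both, WT mouse 1, the shallowest library, was the WT mouse within or below the range of the mice labelled *Rptor* fl/fl, and without it both were called lower (log2 differences -0.60 and -0.68). *Atic* stayed close, at 94.9, 85.6 and 83.9 CPM against 84.7, 108 and 97.9 (-0.17, 95% interval -0.38 to 0.04). *Impdh1* was the exception in sign, at 11.5, 6.09 and 7.20 CPM against 5.06, 5.94 and 8.22 (0.18, 95% interval -0.45 to 0.80), with 4 footprints in WT mouse 1.

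**Figure D4:**
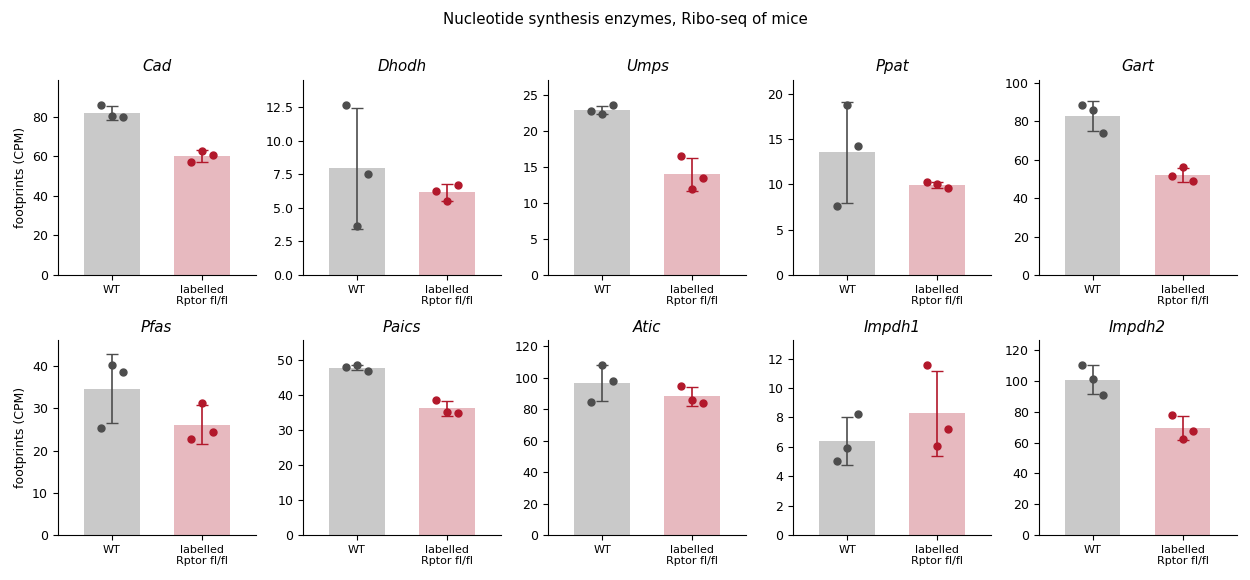
Ribosome footprints of each enzyme in the small intestine of Lgr5Cre mice, in CPM after TMM scaling, for WT mice and mice labelled Rptor fl/fl (n = 3 each). Bars are means, points are mice and error bars are SD; Cad, Umps, Gart, Paics and Impdh2 do not overlap between groups, each lower in mice labelled Rptor fl/fl.

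The list of members was chosen with earlier results of these data known. In all, 5 of 10 members were called lower in the mice, beside 5.97% of the 11515 genes tested. The count was 3 by DESeq2 (*Cad*, *Gart*, *Impdh2*), 3 without WT mouse 3 (the same genes) and 1 with an offset for transcript length (*Impdh2*). No member was called higher by edgeR (0 also at an unadjusted p under 0.05 and 0 by DESeq2), beside 7.47% of genes. Groups failed to overlap downward for the 5 members that edgeR called, beside 15.5% of genes, and upward for 0, beside 15.6%. The members' median log2 difference was -0.47 (-0.47 to -0.43 over the alternative processing tried), against -0.015 for all genes. The 95% intervals of the 5 overlapped, from -0.63 to -0.22 for *Cad* and from -1.09 to -0.38 for *Umps*, and they are not ranked. Mean levels in WT mice were 45.5 ± 13.0 TPM for *Gart* (SD, n = 3), 37.7 ± 3.50 for *Impdh2* and 34.2 ± 3.95 for *Atic*, and in mice labelled *Rptor* fl/fl 24.9 ± 4.99, 26.7 ± 3.21 and 32.1 ± 2.53. Neighbours in this order overlapped in both groups, so these genes are not ordered.

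**Figure D5:**
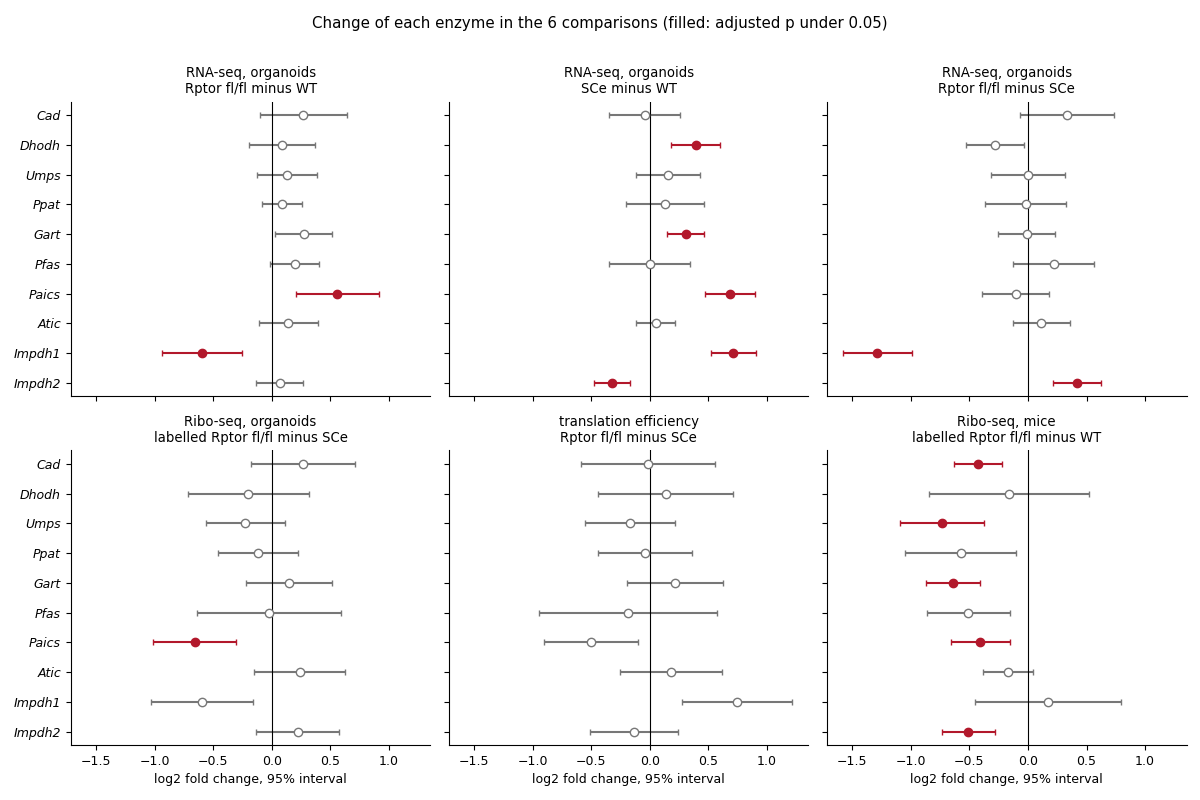
Differences of the 10 enzymes in the 6 comparisons, as log2 fold change with its 95% interval; filled red points passed the adjusted p threshold of 0.05. The mouse panel has 5 enzymes called lower and 0 higher, organoid Ribo-seq 1 lower and 0 higher, translation efficiency none, and the RNA-seq panels hold calls in both directions.

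Other gene groups moved with the enzymes in the mice, for which the shares of all genes called are given above. All 17 proliferation genes had negative differences and 9 fell, with a median of -0.37, among them *Top2a* (-0.48, adjusted p = 0.00246), *Mcm2* (-0.52, 0.0149) and *Mcm6* (-0.44, 0.0175). Their summed level was 1202 to 1317 CPM in WT mice and 942 to 1092 in those labelled *Rptor* fl/fl. Of the stem cell markers, 3 of the 9 tested fell (804 to 821 CPM against 499 to 794), and *Lgr5* itself read 11.4, 7.76 and 8.77 CPM in WT mice against 45.8, 8.53 and 6.32.

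Paneth cell markers fell for 3 of 5 (8735 to 9586 CPM in WT against 4940 to 8477), goblet cell markers rose for 4 of 6 (25247 to 25543 against 29914 to 33467), and enterocyte markers rose for 3 and fell for 1 of 8 (48750 to 50167 against 53838 to 58695). Markers of cells in which *Lgr5* does not drive Cre were also present: stroma markers summed to 989 to 1021 CPM in WT and 1231 to 1477 in mice labelled *Rptor* fl/fl, with 5 of 6 called higher, immune cell markers to 3752 to 3850 and 3478 to 3854 CPM, with 1 higher and 1 lower of 6, smooth muscle markers to 1335 to 1481 and 1267 to 1445 CPM, with 1 higher and 1 lower of 6, and pancreatic acinar markers to 1296 to 3142 and 2393 to 3361 CPM, with 1 of 8 higher. No marker counted here was at 0 in any mouse. The part of these shifts in the enzymes' footprints was not tested.

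The other genes of nucleotide metabolism, 44 by lists of salvage, breakdown, deoxynucleotide synthesis, nucleotide kinases, and PRPP, AMP, GMP and CTP synthesis, gave calls in both directions in the mice. Of 41 tested, 7 rose and 3 fell, with a median of -0.065, beside 7.47% and 5.97% of all genes. Salvage had 3 of 13 higher and 1 lower and breakdown 3 of 8 higher and none lower by edgeR. The 4 with the smallest adjusted p were *Nt5e*, the surface 5′-nucleotidase (1.30, adjusted p = 6.45e-07), *Ada*, adenosine deaminase (1.03, 4.12e-07), *Upp1*, uridine phosphorylase (0.95, 1.08e-05), and *Pnp*, purine nucleoside phosphorylase (0.71, 7.46e-05), each of which acts on nucleosides or nucleotides already made. Of the 5 formate supply genes 2 fell, and of the 5 regulators tested 1 fell.

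In RNA-seq of *Rptor* fl/fl against WT organoids, 3 of 43 of these other genes rose and 7 fell (median -0.18), beside 11.6% and 11% of all genes. Of 5 formate supply genes 1 fell, and of 6 regulators 2 rose and 2 fell. *Atf4* mRNA read 279 and 227 CPM in WT against 177 and 169 in *Rptor* fl/fl, and *Myc* mRNA 115 and 94.8 against 195 and 153. *Ada* fell by 2.76 (adjusted p = 0.00516), *Mthfd2*, the mitochondrial enzyme of formate supply, by 1.14 (0.0158) and *Gda*, guanine deaminase, by 0.87 (0.0162), while *Mycn*, listed among the regulators, rose by 1.45 (0.0156). In SCe against WT, 10 rose and 8 fell of 43 (median -0.036), beside 22.4% and 19.9% of all genes, shares close to those of these genes. Those named by the smallest adjusted p were *Prps2*, a PRPP synthetase (0.66, 0.00211), *Rrm2b*, a ribonucleotide reductase subunit (1.43, 0.00299), *Adssl1*, an adenylosuccinate synthase (2.72, 0.00316), and *Pnp* (-0.56, 0.00327).

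Between *Rptor* fl/fl and SCe organoids, 8 rose and 10 fell of 43 in RNA-seq (median -0.11), beside 21% and 21.8% of all genes. The calls were led by *Ada* (-2.52, adjusted p = 0.000978), *Prps2* (-0.82, 0.00159), *Rrm2* (-1.20, 0.00176) and *Adssl1* (-2.72, 0.00333). Beside 6.63% of all genes higher and 9.84% lower, footprints gave 4 higher and 4 lower of 42 (median -0.086). These were led by *Adssl1* (-3.30, adjusted p = 0.00863), the salvage kinase *Tk1* (0.85, 0.0109) and *Xdh*, xanthine dehydrogenase (0.95, 0.0227). *Adssl1* rested on few reads, with 9, 6 and 13 across the SCe replicates and 3, 3 and 2 across those labelled *Rptor* fl/fl. Of the 6 regulators, which are not among these 42, *Atf4* rose (1.49, 0.009). Translation efficiency was called higher for 2 of these 42 genes, *Ada* (2.34, adjusted p = 0.00259) and *Rrm2* (0.73, 0.0426), for *Mthfd2* among 5 formate supply genes (1.66, 0.0404), and lower for *Mycn* among 6 regulators (-3.92, 0.0437), which had 1, 2 and 27 footprints in the SCe libraries. Of all genes, 1.12% were called higher in translation efficiency and 1.81% lower.

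Across the 7 RNA-seq lines and libraries, the members did not share a single pattern. Pearson's r of each member with the mean of all members (log2 CPM, with that member included in the mean) was 0.84 for *Umps* and *Gart*, 0.83 for *Paics*, 0.82 for *Dhodh* and 0.72 for *Ppat*, then 0.44 for *Atic* and *Impdh1*, 0.40 for *Cad* and 0.36 for *Pfas*, and -0.36 for *Impdh2*. These points share libraries and depth, and they are given as a description. The centred mean differed between replicates of a group, at 0.12 and -0.11 in *Rptor* fl/fl and 0.15, 0.0096 and 0.052 in SCe. Likeness to it therefore also follows differences between replicates. The 5 genes outside the lists whose mRNA pattern was most like the members' mean, of 15208 ranked, were *2810004N23Rik* and *Nop56* (both 0.98), *Slc7a6*, *Gtse1* and *Dph1* (each 0.96).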

How the data were processed

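RNA-seq, organoid Ribo-seq and mouse Ribo-seq tables held, per transcript, an estimated count (NumReads), a TPM value and an effective length that the authors deposited from Salmon 1.1.0, run against GENCODE vM21 protein-coding mRNA for RNA-seq, against UTR-trimmed sequences with separate entries for 5′ regions (named _uORF) in organoid Ribo-seq, and for the mice against longer entries with no separate _uORF, which by their lengths appear to join 5′ region and coding sequence, so levels were not set across these assays. Ribo-seq adapters were trimmed with cutadapt 1.18, per the labels. Use of strand is not given in the sources used here. A table of the authors' own translation efficiency comparison, with its dispersions, ratios and p-values, was not used.

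Estimated counts were summed per gene without the entries named _uORF and rounded, technical RNA libraries were summed per line, and genes were filtered with filterByExpr, scaled by TMM and tested with edgeR 4.0.16 (quasi-likelihood, R 4.3.3), with Benjamini-Hochberg adjustment over all genes tested and a threshold of 0.05. Each fit held only the groups compared. For translation efficiency, the interaction term between assay and group was tested. The procedure was tested on simulated data, with changes larger than that of any member here. Recovery of changes of the members' size was not tested. Alternatives were DESeq2 1.42.0, no filter, each replicate left out, a replicate block, a length offset, technical libraries apart, _uORF entries added and library sizes leaving out the 10 most counted genes. CPM were computed over all units of an assay. Members were named in every comparison, with *Rptor* as the check, and of other nucleotide genes at most the 4 called with the smallest adjusted p, of proliferation genes at most 3, and the 5 most alike in pattern (a prior of 0.5 CPM). *Atf4* and *Myc* were named in addition for RNA-seq of *Rptor* fl/fl against WT organoids. Members and lists were chosen with earlier results of these data known.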

Additional observations from a re-analysis of the deposited data

How the results depend on the processing

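In RNA-seq of *Rptor* fl/fl against WT organoids, 4 members were called higher with technical libraries kept apart (*Cad*, *Gart*, *Paics*, *Pfas*), and leaving out 1 line gave 0 to 3 higher and 0 to 1 lower. *Dhodh* then ranged from -0.016 to 0.20 and *Impdh2* from -0.012 to 0.16. In SCe against WT, leaving out 1 sample gave 2 to 4 higher and 0 to 1 lower, and *Cad*, *Pfas* and *Atic* ranged from -0.15 to 0.017, -0.12 to 0.082 and -0.0060 to 0.074. *Pfas* was 0.018 with technical libraries apart. *Impdh1* and *Paics* were called under all 10 alternatives there. Between *Rptor* fl/fl and SCe in RNA-seq, DESeq2 and technical libraries apart each called 2 lower (*Dhodh* added), and leaving out 1 sample gave 0 to 3 higher. *Umps* was 0.010 with no filter and 0.0017 with the length offset, *Gart* 0.0012 with no filter, and without 1 sample *Umps*, *Gart*, *Ppat*, *Paics* and *Atic* ranged from -0.12 to 0.12, -0.13 to 0.12, -0.10 to 0.10, -0.27 to 0.060 and -0.0050 to 0.24.

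In organoid Ribo-seq, DESeq2 and added _uORF entries each called 2 lower (*Impdh1* added), the length offset called 0, and leaving out 1 library gave 0 to 2. The length offset turned *Ppat* to 0.56, *Gart* to -0.55 and *Pfas* to 0.052 and moved *Paics* to -0.99 (adjusted p = 0.168). *Pfas* was 0.012 with no filter and -0.29 to 0.22 without 1 library. In translation efficiency, DESeq2 called 1 higher and 1 lower, technical libraries apart called 1 higher, and leaving out 1 library gave 0 to 1 in each direction, with both calls made without SCe Ribo-seq replicate 1. The length offset turned *Dhodh* to -0.18, *Ppat* to 0.62 and *Gart* to -0.48, and over all genes it moved the share of calls that were higher from 38.1% to 52.6%. *Cad* was 0.013 with _uORF entries, and without 1 library *Cad*, *Pfas* and *Ppat* ranged from -0.19 to 0.18, -0.46 to 0.051 and -0.15 to 0.026. In the mice, DESeq2 called 3 lower (*Cad*, *Gart*, *Impdh2*), the length offset 1 (*Impdh2*), and leaving out 1 mouse 3 to 6. *Dhodh* was 0.059 with the length offset, and *Dhodh* and *Impdh1* ranged from -0.45 to 0.031 and -0.066 to 0.51 without 1 mouse. The cause of these shifts was not tested.

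Samples with the same replicate number deviated together in RNA-seq, where 2 numbers are shared (correlations 0.20 to 0.40). The WT and *Rptor* fl/fl groups hold 2 lines each, which deviate from their mean as mirror images. The RNA-seq correlations are therefore not independent between the numbers and cannot decide on pairing. Same-numbered samples hardly deviated together in organoid Ribo-seq (-0.046 to 0.029) or the mice (-0.0047 to 0.035). Nothing in the labels pairs them. The methods of the study mention an extra *Rptor* fl/fl set induced in culture to give paired samples, without saying which libraries came from it. With the replicate block, SCe against WT kept 2 higher (*Impdh1*, *Paics*) and 0 lower, with *Pfas* at 0.0094, *Rptor* fl/fl against SCe had 0 higher, with *Umps* at 0.019 and *Gart* at 0.0090, organoid Ribo-seq had 0 lower, with *Pfas* at 0.043, and *Cad* in translation efficiency was 0.037. Depth limits *Dhodh*, *Ppat*, *Umps* and *Impdh1* in the mice, where WT mouse 1 held 4 to 18 footprints of each.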
